A study of Mus musculus with 12 samples.

Results

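The genes described here are 45 mouse cell cycle and DNA replication genes, measured in bone-marrow-derived macrophages given interleukin-4 (IL-4). They were taken as every probe whose gene name on the array was on a fixed list, with Cdc2a read as Cdk1 and Cdc45l as Cdc45. This gave 71 probes, of which 69 passed the background filter, and all 45 genes were among the 18436 genes tested. By their known roles 21 of them act at the entry to or in S phase (origin licensing and the replicative helicase, nucleotide supply and the replication fork, and the cyclin E and E2F genes) and 24 act in G2 and mitosis. The macrophages came from C57BL6/J and Balb/cAnNCrl mice 8 to 12 weeks old, shortened below to C57BL6 and Balb/c. Each strain gave 3 groups of 2 arrays: mock cells kept without IL-4 for 18 h, cells with IL-4 at 10 ng/ml for 4 h, and cells with IL-4 at 10 ng/ml for 18 h. All 12 samples were wild-type cells grown in the growth factor CSF1 at 200 ng/ml, replated on day 6 and treated from day 7. Each sample was a pool of marrow from 2 males and 1 female, and the replicates were independent experiments with different littermates. The 4 h cells had no mock of their own length. Time in culture and time in IL-4 therefore cannot be told apart at 4 h, nor between 4 h and 18 h. The treatment text also mentions LPS, but no sample is labelled with it.

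CSF1 makes cultured bone marrow macrophages divide, and IL-4 turns them towards alternative activation. In a cell that commits to division, cyclin E with its kinase inactivates RB proteins and releases E2F factors, which turn on the genes for licensing and copying DNA; CDC6 and CDT1 then load the MCM helicase on origins, and geminin blocks a second loading. Later the MuvB complex with B-MYB and FOXM1 turns on the genes of mitosis, and in resting cells the DREAM complex, built on the same core, holds both sets down.

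The level used throughout is the log2 processed signal of the gene's brightest kept probe minus the 75th percentile of its array, so that 0 means a signal equal to that percentile. Levels are compared between arrays only, never between genes. A difference of 1 on this scale is a doubling. Each array carried 43379 spots, with 54.9% to 69.7% of them well above background, and replicates correlated at 0.974 to 0.989 over all genes. Of the 45 genes, 43 were well above background on all 12 arrays. Ccne2 was not on the array Balb/c 4 h replicate 1. The spot of Ccnb2 was marked as an outlier on Balb/c 4 h replicate 2, so that value was dropped and its Balb/c 4 h mean rests on 1 array. All 7 macrophage markers were well above background on all 12 arrays. In these bulk samples fewer cycling cells and less RNA per cycling cell cannot be told apart.

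Before any group was compared, 2 arrays stood apart. Balb/c mock replicate 1 and Balb/c 4 h replicate 1 held the lowest value of 17 and 22 of the 45 genes. The median S phase gene lay 1.27 below its own mean over the 12 arrays in the former (a deviation of -1.27) and at -1.37 in the latter, against 0.52 in Balb/c mock replicate 2 and -0.03 in Balb/c 4 h replicate 2. The median mitotic gene was at -0.60 and -0.57 on the same 2 arrays, and at 0.24 and -0.02 on their partners. The unscaled 75th percentile of these 2 arrays was 1229 and 1257, toward the low end of the 1196 to 1690 over all arrays, and subtracting it holds the median of all genes near 0 on every array. Both arrays lay on slide 1, together with Balb/c 18 h replicate 1 and Balb/c mock replicate 2, which were not low. The summed macrophage markers were highest on the same 2 arrays, at 728 and 689 times the 75th percentile against 531 to 659 elsewhere. Single macrophage markers differed in this. Csf1r was highest there, at 6.77 and 7.00 against 5.87 to 6.45 elsewhere. Itgam was at 3.99 and 3.79 against 3.88 to 4.53, and Fcgr1 at 6.67 and 6.01 against 4.61 to 7.12. The summed stromal markers were also highest on these 2 arrays, at 1.33 and 1.43 against 0.327 to 1.02. The stromal sum rested mainly on Pdgfrb, at -0.04 and -0.10 on these arrays. It was at -1.15 to -0.71 on the other Balb/c arrays and at -4.94 to -3.84 in C57BL6. Col1a1, at -3.71 and -2.94, lay within its range elsewhere (-4.21 to -2.68), and Col1a2 was at -1.98 and -1.54 against -2.22 to -1.65. The part of either marker list in the low values was not tested.

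**Figure D1:**
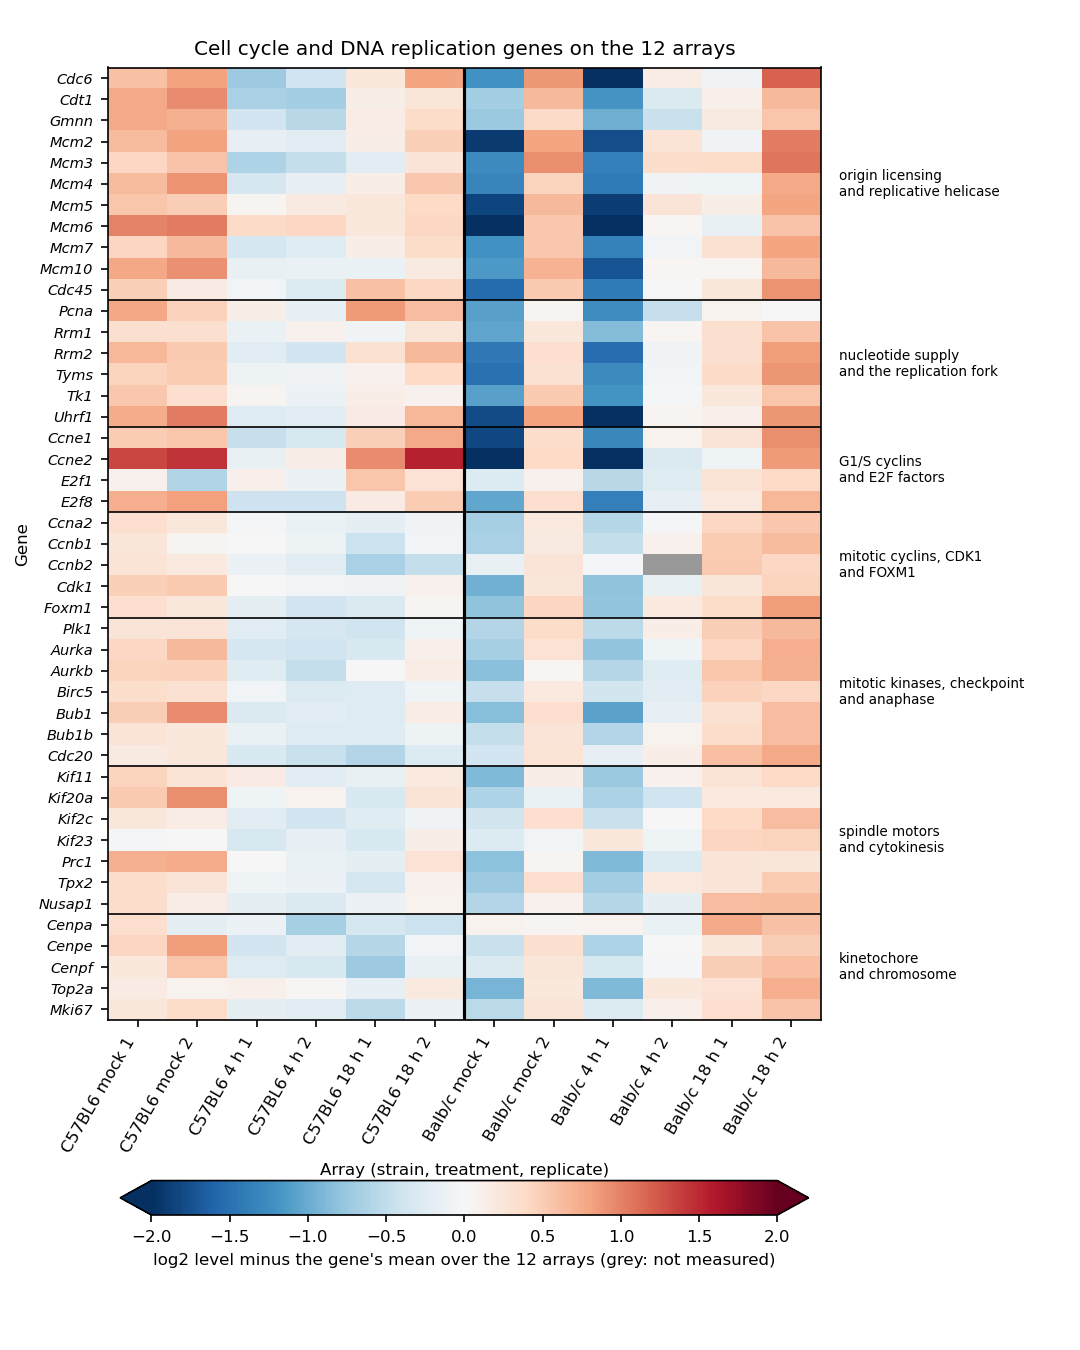
Log2 level of the 45 genes (rows, grouped by role) on the 12 arrays (columns), as the difference from each gene's mean over the arrays; blue is lower, red is higher (colours stop at 2 either way) and grey is the missing value of Ccnb2. The columns Balb/c mock 1 and Balb/c 4 h 1 are blue in nearly every row, C57BL6 mock is red, and both Balb/c 18 h columns are red, least so for the licensing genes of replicate 1.

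The S phase genes spread more over the arrays than the mitotic genes. A gene's highest level exceeded its lowest by a median of 2.38 for S phase genes and 1.34 for mitotic genes, against 1.30 over all genes tested. Within C57BL6 alone these medians were 1.07, 0.71 and 0.82, and within Balb/c alone they were 2.38, 1.20 and 0.91. The widest of the 45 was Ccne2, which encodes cyclin E2, with 5.13 between its extremes, and the narrowest was 0.77. The lowest value of Ccne2 was that of Balb/c 4 h replicate 1, where it was not well above background. On the C57BL6 mock arrays 44 and 43 of the 45 genes stood above their own mean, and on the C57BL6 4 h arrays 9 and 6 did. On the Balb/c 18 h arrays 40 and 45 stood above it.

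**Figure D2:**
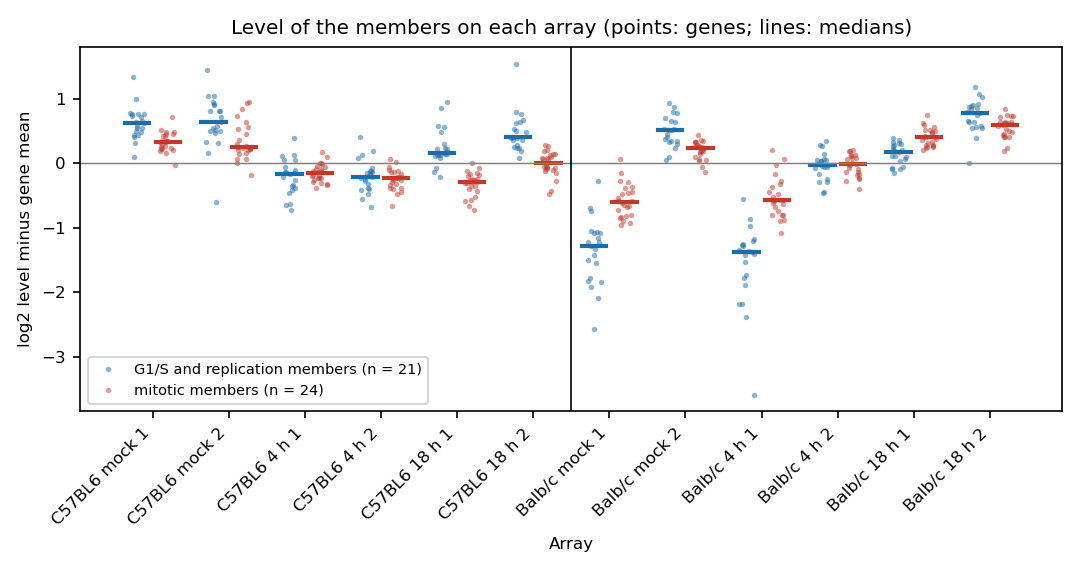
Log2 level minus the gene's own mean for each of the 45 genes (points) and the median (lines) on each array, with the 21 S phase genes in blue and the 24 mitotic genes in red. Both medians fall below 0 on the C57BL6 4 h arrays and far below it on Balb/c mock 1 and Balb/c 4 h 1, where the S phase median is the lower.

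The classes also differ in promoter letters, which the choice of genes did not use. RefSeq (GRCm38.p6) gave promoter windows of 300 bases, from 250 before to 50 after the transcript start, for 37 of the 45 genes: 20 windows of 18 S phase genes and 20 windows of 19 mitotic genes. Each window was searched on both strands, with overlapping matches counted, for the cell cycle homology region read by MuvB (CHR, TTTGAA), for the CCAAT box read by NF-Y (CCAAT) and for the E2F site (TTTCCCGC, TTTCGCGC, TTTGCCGC or TTTGGCGC). The CHR letters stood in 15 of 20 mitotic windows (75%), 3 of 20 S phase windows (15%) and 17.9% of all 32851 RefSeq windows. The E2F letters stood in 1 of 20 mitotic windows (5%), 7 of 20 S phase windows (35%) and 2.26% of all windows. CCAAT stood in 17 mitotic windows (85%), 14 S phase windows (70%) and 37.4% of all windows, and CHR together with CCAAT in 14 of 20, 3 of 20 and 6.95%. These are matches of letters, not measured binding sites.

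The 160 bases before the start of 5 genes show the difference, with matches in capitals and 5′ to 3′ along the gene. Mki67 (chr7:135716380-135716539 on the minus strand) holds CHR and CCAAT letters, Cdk1 (chr10:69352913-69353072 on the minus strand) holds all of CHR, CCAAT and E2F, and Ccnb2 (chr9:70421555-70421714 on the minus strand) has 3 CCAAT matches, while both CHR matches of its window lie outside the stretch. Mcm6 (chr1:128359706-128359865 on the minus strand) has 3 E2F matches, a pair of which overlap, and Cdc6 (chr11:98907991-98908150 on the plus strand) has 1.
Mki67: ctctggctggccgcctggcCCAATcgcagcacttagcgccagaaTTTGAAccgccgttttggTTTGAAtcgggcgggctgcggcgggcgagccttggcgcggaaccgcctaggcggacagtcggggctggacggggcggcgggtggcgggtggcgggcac
Cdk1: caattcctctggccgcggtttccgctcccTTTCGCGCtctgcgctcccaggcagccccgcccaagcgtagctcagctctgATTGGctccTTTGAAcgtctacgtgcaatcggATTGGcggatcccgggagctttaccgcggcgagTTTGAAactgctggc
Ccnb2: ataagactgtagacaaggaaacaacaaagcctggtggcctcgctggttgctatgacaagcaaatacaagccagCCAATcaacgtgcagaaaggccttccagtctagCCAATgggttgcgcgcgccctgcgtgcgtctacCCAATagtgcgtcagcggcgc
Mcm6: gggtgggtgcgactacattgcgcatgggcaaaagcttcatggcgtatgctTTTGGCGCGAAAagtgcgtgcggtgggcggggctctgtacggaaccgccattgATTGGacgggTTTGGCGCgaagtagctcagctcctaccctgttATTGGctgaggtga
Cdc6: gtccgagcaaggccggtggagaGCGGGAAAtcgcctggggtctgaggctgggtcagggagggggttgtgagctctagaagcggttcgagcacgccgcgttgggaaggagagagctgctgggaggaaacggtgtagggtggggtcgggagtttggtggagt

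In C57BL6 macrophages nearly all of the genes were lower after 4 h of IL-4 than in mock. The median log2 change was -0.57 for the 45 genes, -0.91 for S phase genes and -0.50 for mitotic genes, against -0.03 over all genes. Within each replicate number 44 of 45 genes were below mock, the same 44 both times, and for 42 of 45 both 4 h arrays lay below both mock arrays, against 27.9% of all genes. In limma fitted over all 12 arrays no member passed an adjusted p below 0.05, while 3.24% of all genes did. At an unadjusted p below 0.05 there were 10 members (22.2%), all lower, against 2953 of the 18436 genes.

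Cdt1, the licensing factor, led the C57BL6 4 h comparison. Its level was 4.94 and 5.13 in mock, 3.54 and 3.51 at 4 h, and 4.30 and 4.43 at 18 h. Each 4 h array thus lay far below each mock array, with the 18 h arrays between them. The change at 4 h was -1.51 ± 0.44 (standard error from limma, 2 arrays a group, adjusted p = 0.131), or 0.35-fold. Gmnn, which encodes geminin, the inhibitor of Cdt1 protein, went the same way, from 5.53 and 5.47 in mock to 4.39 and 4.21 at 4 h, a change of -1.20 ± 0.35 (adjusted p = 0.132). Aurkb, the kinase of the chromosomal passenger complex, was at 1.10 and 1.11 in mock and at 0.42 and 0.17 at 4 h, -0.81 ± 0.28 (adjusted p = 0.193). Kif20a, a motor of cytokinesis, was at 4.16 and 4.57 in mock and at 3.54 and 3.70 at 4 h, -0.74 ± 0.26 (adjusted p = 0.204).

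The replicate number marks an independent experiment within each strain, and a fit with that number as a block called 10 of the 45 genes at 4 h in C57BL6, all lower, against 16.6% of all genes. Of these 10, 5 act in S phase: Cdt1 (adjusted p = 0.0085), Gmnn (0.0178), E2f8 (-1.19, 0.0262), a repressor of E2F targets, Cdc6 (-1.26, 0.0302), the loading factor, and Mcm4 (-1.01, 0.0326), a helicase subunit. The other 5 act in mitosis: the motor Cenpe (-0.94, 0.0173), Aurka (-0.90, 0.0297), Kif20a (0.0326), the checkpoint kinase Bub1 (-0.98, 0.0371) and Aurkb (0.0445). Leaving out the low arrays Balb/c mock 1 and Balb/c 4 h 1, which enter this comparison only through the shared spread, called 4: Cdt1 (adjusted p = 0.0210), Gmnn (0.0265), E2f8 (0.0366) and Aurkb (0.0445), against 4.47% of all genes. The standard error of Cdt1 was then 0.21 in place of 0.44.

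**Figure D3:**
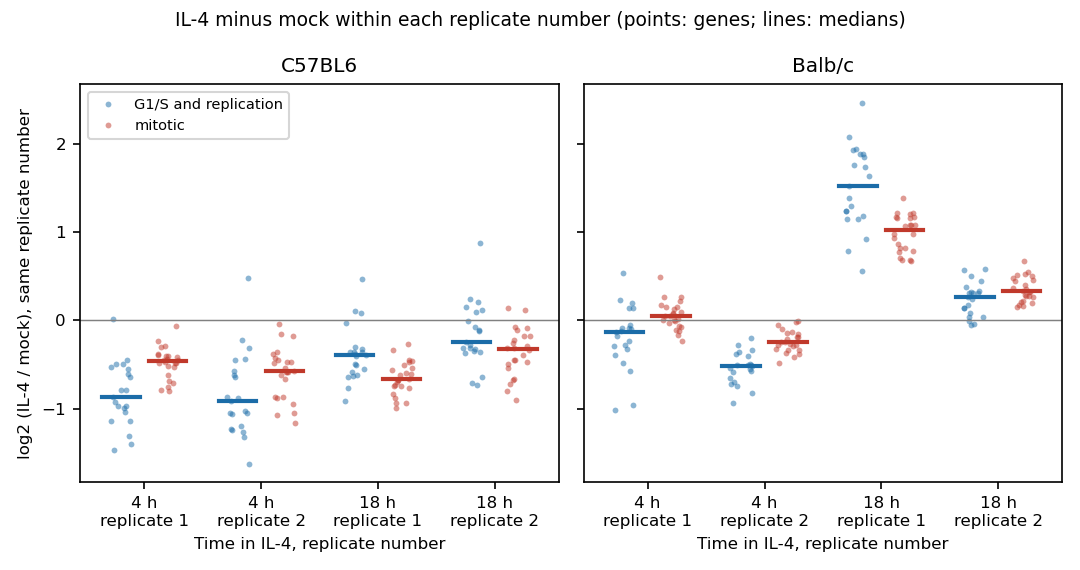
Log2 change from mock to IL-4 within each replicate number, for each of the 45 genes (points; S phase blue, mitotic red) with medians (lines), in C57BL6 (left) and Balb/c (right). In C57BL6 the points lie mostly below 0 at both times; in Balb/c they straddle or lie below 0 at 4 h and nearly all lie above 0 at 18 h, farther from it in replicate 1.

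The C57BL6 helicase genes shared the direction at 4 h, with different sizes. Mcm3 was at -1.04, Mcm4 at -1.01, Mcm10 at -0.99, Mcm2 at -0.91, Mcm7 at -0.84, Mcm6 at -0.62 and Mcm5 at -0.41. Cyclin E genes were also lower, Ccne2 at -1.40 and Ccne1 at -0.92, as was Uhrf1, which carries DNA methylation through replication, at -1.12. The smallest negative change was that of Top2a, which encodes topoisomerase II alpha, at -0.05. E2f1 alone was above 0, at 0.25, with 1.11 and 0.43 in mock and 1.13 and 0.91 at 4 h, so that its groups overlap.

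After 18 h of IL-4 the C57BL6 S phase genes stood nearer to mock, while the mitotic genes stayed below it. The median change against mock was -0.29 for S phase genes and -0.48 for mitotic genes, against -0.04 over all genes, and 41 of the 45 changes were negative. Both 18 h arrays lay below both mock arrays for 36 of 45 genes, against 28.5% of all genes: 14 of 21 S phase genes and 22 of 24 mitotic genes. No member was called by limma, against 4.29% of all genes, and at an unadjusted p below 0.05 there were 5 lower and 1 higher (13.3% of members), fewer than the 17.5% of all genes. With the replicate block 5 were called, 4 lower and 1 higher, against 17.4% of all genes.

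Ccnb2, which encodes cyclin B2, led at 18 h in C57BL6. Its level was 4.81 and 4.73 in mock, 4.41 and 4.30 at 4 h and 3.87 and 4.06 at 18 h, lowest on both 18 h arrays. The change from mock to 18 h was -0.80 ± 0.18 (adjusted p = 0.065; 0.0390 with the replicate block; 0.0321 without the arrays Balb/c mock 1 and Balb/c 4 h 1, when Ccnb2 was the only member called, against 5.61% of all genes). Cenpf, a kinetochore protein of G2, was at 2.65 and 3.00 in mock and at 1.71 and 2.28 at 18 h, -0.83 ± 0.26 (adjusted p = 0.137; 0.0324 with the block). Cenpe, the kinetochore motor, was at 4.73 and 5.15 in mock and at 3.74 and 4.25 at 18 h, -0.94 ± 0.33 (adjusted p = 0.181; 0.0154 with the block). Kif20a was at -0.75 ± 0.26 (adjusted p = 0.177; 0.0310 with the block). Among mitotic genes the changes closest to 0 were those of Kif23, a partner motor of cytokinesis, at -0.07, and Top2a, at -0.10.

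E2f1, the activating E2F that drives S phase genes, went the other way. Its level in C57BL6 was 1.58 and 1.31 at 18 h, above both mock arrays (1.11 and 0.43), a change of 0.67 that was called with the replicate block (adjusted p = 0.0319). Ccne1, Pcna and Cdc45 were the other positive values, at 0.09, 0.12 and 0.17.

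Between 4 h and 18 h in C57BL6 nearly all S phase genes were higher at 18 h in both replicates, and most mitotic genes in replicate 2 but not in replicate 1. Of the S phase genes 20 of 21 were higher at 18 h than at 4 h within both replicate numbers, by a median of 0.47 in replicate 1 and 0.71 in replicate 2. Mitotic genes had medians of -0.18 and 0.20, with 5 of 24 higher in replicate 1 and 23 of 24 in replicate 2. Both 18 h arrays lay above both 4 h arrays for 18 of 21 S phase genes and 3 of 24 mitotic genes, against 24.3% of all genes. The arrays of Mcm6, Mcm10 and Rrm1 overlapped, and Mcm6 was the S phase gene not higher in either replicate, at 5.70 and 5.72 at 4 h and 5.54 and 5.72 at 18 h. Cdc6 was at -1.71 and -1.38 at 4 h and at -0.76 and -0.19 at 18 h, near its mock levels of -0.40 and -0.17.

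**Figure D4:**
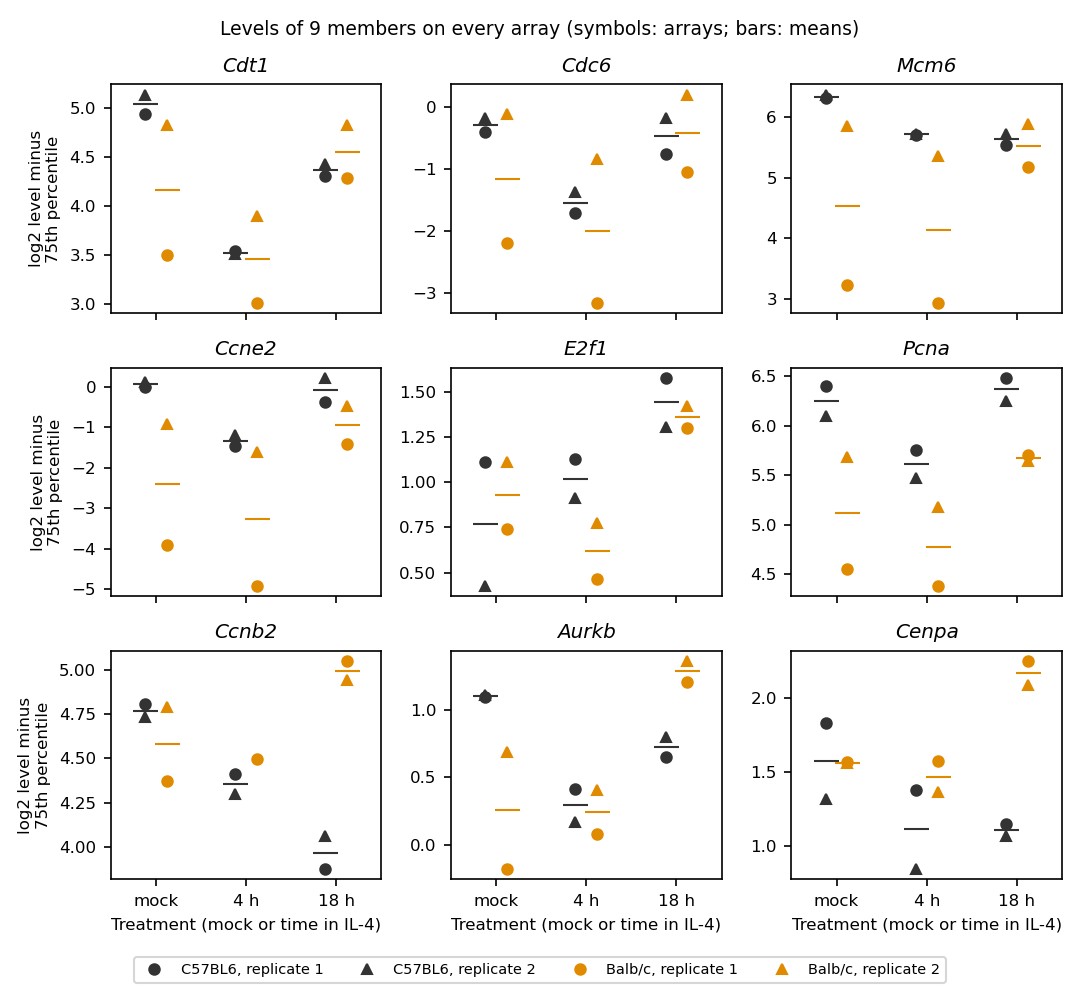
Log2 level (signal relative to the 75th percentile of the array) of 9 of the genes in mock and after 4 h and 18 h of IL-4, with each array as a symbol (circles replicate 1, triangles replicate 2) and each group mean as a bar where both arrays were measured. Cdt1, Cdc6 and Ccne2 dip at 4 h, the Balb/c circles of mock and 4 h lie low for Cdt1, Cdc6, Mcm6, Ccne2 and Pcna, and Ccnb2, Aurkb and Cenpa lie higher in Balb/c than in C57BL6 at 18 h.

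In Balb/c macrophages the 4 h values depended on the replicate. In replicate 2 all 44 genes measured on both arrays were below mock, by a median of 0.35 (a change of -0.35), while in replicate 1 21 of 45 were above mock and the median was -0.03. For 0 of 45 genes did both 4 h arrays lie below both mock arrays, against 15.2% of all genes, since the replicates lay far apart. Over both replicates the median change was -0.18 (S phase -0.34, mitotic -0.10), against 0.02 over all genes. None of the 45 was called by limma, against 1.43% of all genes, none had an unadjusted p below 0.05 (10.1% of all genes did), and the replicate block called none either, against 7.3% of all genes, with 3 at an unadjusted p below 0.05 against 23.5% of all genes. Cdt1 had the smallest p, as in C57BL6, at 3.50 and 4.83 in mock and 3.01 and 3.90 at 4 h (-0.71 ± 0.44, adjusted p = 0.734). Gmnn was at 4.02 and 5.14 in mock and 3.79 and 4.32 at 4 h (-0.53 ± 0.35, adjusted p = 0.763). Kif23 was at 0.23 ± 0.19 (adjusted p = 0.830) and E2f1 at -0.31 ± 0.26 (adjusted p = 0.837). Leaving out the 2 low arrays, which leaves replicate 2 alone, put Kif23 at -0.02, and the median of the 45 was then -0.35.

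After 18 h of IL-4 every one of the 45 genes was higher than mock in the Balb/c group means. The median change was 0.72 (0.89 for S phase genes, 0.66 for mitotic genes), against 0.02 over all genes, and the range was 0.39 to 1.46. The size differed between the experiments: all 45 genes were higher in replicate 1, by a median of 1.16, and 42 of 45 in replicate 2, by a median of 0.31. Cdt1, Mcm10 and Pcna were the exceptions in replicate 2, at -0.00, -0.06 and -0.04. Both 18 h arrays lay above both mock arrays for 23 of 45 genes, against 21.1% of all genes, and these were 20 of 24 mitotic genes and 3 of 21 S phase genes. No member was called by limma, against 3.73% of all genes, with 8 at an unadjusted p below 0.05 (17.8%), all mitotic and all higher, near the 15.1% of all genes. Without the array Balb/c mock 1 the median of the 45 genes fell from 0.72 to 0.20, and without Balb/c mock 2 it was 1.24.

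Aurkb led the Balb/c 18 h comparison, at -0.18 and 0.69 in mock, 0.08 and 0.41 at 4 h and 1.21 and 1.36 at 18 h. Both 18 h arrays lay above every other Balb/c array, a change of 1.03 ± 0.28 (adjusted p = 0.099), or 2.05-fold. Nusap1, a spindle microtubule protein, was at 1.14 and 1.83 in mock and 2.36 and 2.37 at 18 h (0.88 ± 0.24, adjusted p = 0.114). Kif23 was at 2.13 and 2.36 in mock and 2.84 and 2.85 at 18 h (0.60 ± 0.19, adjusted p = 0.169). Cdc20, the activator of the anaphase-promoting complex, was at 3.31 and 3.97 in mock and 4.29 and 4.45 at 18 h (0.73 ± 0.24, adjusted p = 0.180).

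The replicate block called 8 of the 45 genes in Balb/c at 18 h, all higher, against 15.1% of all genes. Of these, 7 act in mitosis: Aurkb (adjusted p = 0.0246), Nusap1 (0.0315), Cdc20 (0.0398), Cenpa (0.61, 0.0411), the centromeric histone, Bub1b (0.60, 0.0463), the checkpoint protein BubR1, Aurka (0.76, 0.0481) and Top2a (0.87, 0.0488). Tyms, thymidylate synthase, was the S phase gene (1.23, 0.0447). The other probes of Top2a ranged down to -0.01 in this comparison, and 1 of them was well above background on as few as 6 arrays.

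Between 4 h and 18 h in Balb/c all 44 genes measured on all 4 arrays were higher at 18 h within both replicate numbers, by medians of 1.17 and 0.64. For 38 of 45 genes both 18 h arrays lay above both 4 h arrays, against 17.6% of all genes. Over both strains the 18 h against 4 h change was positive for all 45 genes, with a median of 0.58 (0.89 for S phase genes, 0.36 for mitotic genes) against -0.02 over all genes. No member was called by limma, against 3.73% of all genes, with 12 at an unadjusted p below 0.05 (26.7%, against 16.7% of all genes). The lowest p were those of Aurkb (0.74 ± 0.19, adjusted p = 0.087), Gmnn (0.90 ± 0.25, adjusted p = 0.101), Nusap1 (0.61 ± 0.17, adjusted p = 0.107) and E2f1 (0.58 ± 0.18, adjusted p = 0.146).

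With the replicate block the 18 h against 4 h comparison gave the largest count of the 11 comparisons: 17 of 45 were called, all higher, against 16.9% of all genes. The groups of this comparison also differ in time in culture, which cannot be told apart from time in IL-4. Of the 21 S phase genes 12 were called, among them Ccne2 (1.78, adjusted p = 0.0338), Cdc6 (1.32, 0.0101), Ccne1 (1.11, 0.0310), Rrm2 (1.07, 0.0281), the regulated subunit of ribonucleotide reductase, E2f8 (0.97, 0.0172), Cdt1 (0.97, 0.0098) and Cdc45 (0.96, 0.0354). Of the 24 mitotic genes 5 were called, led by Aurkb (0.0226). Without the 2 low arrays and without the block Aurkb (0.66, adjusted p = 0.0476) and Gmnn (0.77, adjusted p = 0.0498) were called, against 3.61% of all genes.

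Over both strains the 4 h change against mock was negative for all 45 genes, with a median of -0.40 (S phase -0.57, mitotic -0.31) against 0.01 over all genes. No member was called by limma, against 6.72% of all genes, with 5 at an unadjusted p below 0.05 (11.1%, against 19.9% of all genes). Cdt1 was at -1.11 ± 0.31 (adjusted p = 0.083), Gmnn at -0.87 ± 0.25 (adjusted p = 0.089), Cenpe at -0.59 ± 0.23 (adjusted p = 0.203) and Kif20a at -0.44 ± 0.18 (adjusted p = 0.224). With the replicate block 10 were called, all lower, against 23.2% of all genes, of which Cdt1 (adjusted p = 0.0045), Gmnn (0.0110) and Cdc6 (-1.05, 0.0132) had the smallest p. Leaving out the 2 low arrays called Cdt1 (adjusted p = 0.0235) and Gmnn (0.0268), against 4.59% of all genes.

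At 18 h the opposite directions in the strains left a median of 0.17 against mock over both strains (-0.00 over all genes), with 36 values above 0 and 9 below. No member was called by limma, against 9.35% of all genes, and 1 had an unadjusted p below 0.05, against 21.6% of all genes. This was E2f1, whose 18 h arrays both lay above both mock arrays in each strain: 1.58 and 1.31 in C57BL6, and 1.30 and 1.42 in Balb/c against 0.74 and 1.12 in mock. Its change was 0.55 ± 0.18 (adjusted p = 0.117), or 1.47-fold, and it was the only member called with the replicate block (adjusted p = 0.0141), against 25.0% of all genes. Kif23 (0.26 ± 0.14, adjusted p = 0.318), Nusap1 (0.30 ± 0.17, adjusted p = 0.374) and Aurkb (0.33 ± 0.19, adjusted p = 0.403) followed.

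Mock macrophages of the strains were compared next. In the group means 44 of 45 genes were lower in Balb/c than in C57BL6 mock, with a median difference of -0.74 (S phase -1.08, mitotic -0.47) against -0.09 over all genes, and this rested on Balb/c mock 1. Set against C57BL6 mock of the same number, Balb/c replicate 1 was lower in 45 of 45 genes by a median of 1.34 (a difference of -1.34), and replicate 2 in 29 of 45, with a median of -0.11. Without Balb/c mock 1 the median difference was -0.09, and without Balb/c mock 2 it was -1.38. No member was called by limma with all arrays, against 5.24% of all genes, and 6 had an unadjusted p below 0.05 (13.3%, against 19.6% of all genes). Kif20a was the nearest, at 4.16 and 4.57 in C57BL6 and 3.02 and 3.50 in Balb/c, lower on both Balb/c arrays (-1.10 ± 0.26, adjusted p = 0.0504). Prc1, the bundler of the central spindle, was at 4.38 and 4.41 in C57BL6 and 2.85 and 3.72 in Balb/c (-1.11 ± 0.32, adjusted p = 0.096). Aurkb was at -0.85 ± 0.28 (adjusted p = 0.139) and Pcna at -1.13 ± 0.39 (adjusted p = 0.156).

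Averaged over mock, 4 h and 18 h, 2 of the 45 genes differed between the strains in limma, against 17.6% of all genes. Pcna, the sliding clamp of the replication fork, was lower in Balb/c, by 0.89 (-0.89 ± 0.22, adjusted p = 0.0292). Its levels were 6.40, 6.10, 5.76, 5.48, 6.48 and 6.25 on the C57BL6 arrays and 4.55, 5.69, 4.38, 5.18, 5.70 and 5.64 on the Balb/c arrays, in the order mock, 4 h and 18 h. Every Balb/c array lay below the C57BL6 array of the same treatment and number. Cenpa was higher in Balb/c, by 0.47 ± 0.13 (adjusted p = 0.0472), with a gap at 18 h (2.25 and 2.09 against 1.15 and 1.06) and none in mock (1.56 and 1.56 against 1.83 and 1.32). With slide as a block the strain difference of Cenpa was -0.00266, the median over the 45 genes was 0.23 and no member was called. Only slide 2 held both strains, and there Balb/c 4 h replicate 2 lay above C57BL6 4 h replicate 1 in 31 of 44 genes, with a median of 0.18. Leaving out single arrays ended the call of Pcna for 9 of the 12 arrays, all but Balb/c mock 1, mock 2 and 4 h 2 (adjusted p = 0.0518 to 0.0816), and that of Cenpa for 10 of the 12, all but C57BL6 mock 1 and 4 h 1 (adjusted p = 0.0541 to 0.117). The median over the 45 genes was -0.25 (S phase -0.46, mitotic 0.01), against -0.05 over all genes, and 0.13 without the 2 low arrays. Pcna was called there too (-0.57, adjusted p = 0.0339), with Cdc20 (0.56, adjusted p = 0.0245) and Plk1 (0.44, adjusted p = 0.0480), a mitotic kinase, higher in Balb/c, against 13.2% of all genes. Cenpa was then at 0.43 (adjusted p = 0.156).

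The IL-4 effect at 18 h differed in sign between the strains for most of the genes. The Balb/c change minus the C57BL6 change had a median of 1.20 over the 45 genes (1.21 for S phase, 1.20 for mitotic), against 0.04 over all genes, and E2f1, at -0.24, was the only negative value. The interaction term in limma called 0 members and 0 of all genes (0.0%). At an unadjusted p below 0.05 there were 20 members (44.4%), all mitotic, against 5.29% of all genes. For 20 of the 45 genes both C57BL6 18 h arrays lay below both mock arrays while both Balb/c 18 h arrays lay above both mock arrays, against 2.82% of all genes. Ccnb2 had the smallest p, 1.21 ± 0.26 (adjusted p = 0.575), since it lay at 3.87 and 4.06 at 18 h in C57BL6 and at 5.05 and 4.94 in Balb/c, with mock at 4.81 and 4.73 against 4.37 and 4.79. Cdc20 (1.37 ± 0.34, adjusted p = 0.683), Cenpf (1.40 ± 0.37, adjusted p = 0.703) and Aurkb (1.41 ± 0.39, adjusted p = 0.735) followed. With the replicate block 39 members had an unadjusted p below 0.05 (86.7%, against 18.3% of all genes), and none was called. Without Balb/c mock 1 the median of the 45 genes was 0.52, and without Balb/c mock 2 it was 1.74.

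**Figure D5:**
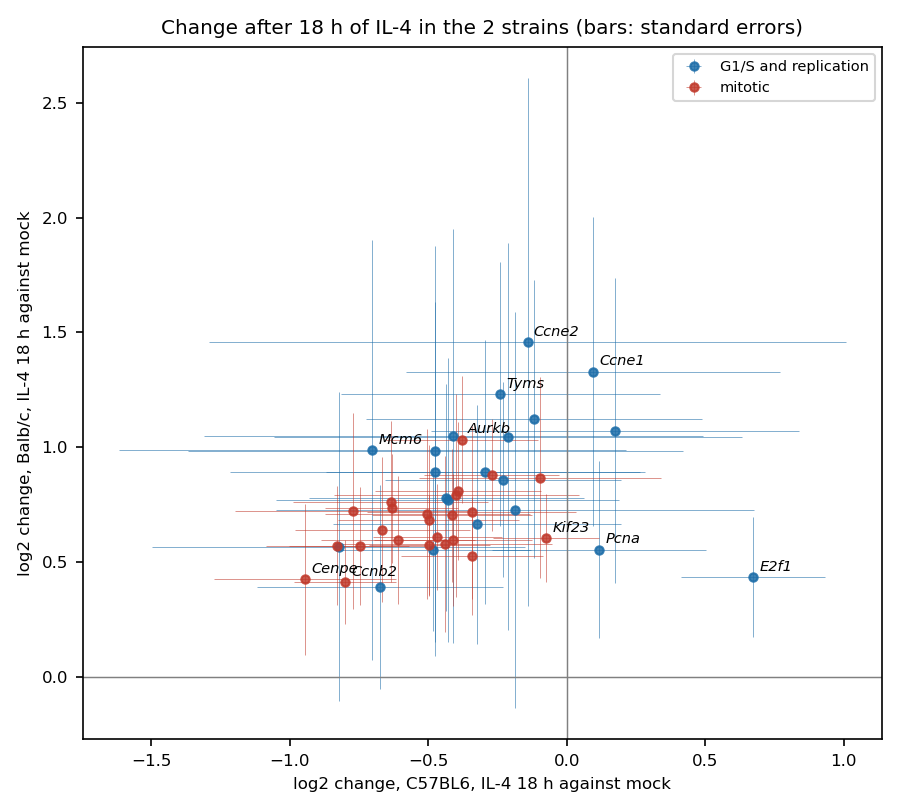
Log2 change from mock to 18 h of IL-4 in C57BL6 (horizontal) and Balb/c (vertical) for the 45 genes, with standard errors from limma as bars; S phase genes are blue and mitotic genes red. Most points lie left of 0 and all lie above 0, and E2f1 is the point farthest to the right.

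At 4 h the Balb/c change minus the C57BL6 change had a median of 0.46 over the 45 genes (0.06 over all genes), with 44 values above 0. The interaction term called none of the members and none of all genes (0.0%), and no member had an unadjusted p below 0.05. Aurkb (0.80 ± 0.39), Cdc20 (0.62 ± 0.34), Kif23 (0.47 ± 0.27) and Kif20a (0.60 ± 0.36) had the smallest p, all with an adjusted p of 1.00. Without Balb/c mock 1 the median was -0.12, and without Balb/c mock 2 it was 1.03.

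Slides 2 and 3 each held a C57BL6 mock and 4 h array of the same number, so the differences within those slides are the replicate differences already given for 4 h. On slide 3 both C57BL6 18 h arrays set against mock 2 gave a median of -0.40, with 41 of 45 genes lower. On slide 1 Balb/c 18 h replicate 1 was above the mean of both mock arrays in 45 of 45 genes, with a median of 0.60. Balb/c 4 h replicate 1 was below that mean in 43 of 45 genes, with a median of -0.55, but against the mock array of its own number the median was -0.03 and 21 of 45 genes were higher.

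Genes of the same pathways outside the 45 mostly had values of the same sign, but not the G1 cyclins and growth drivers at 18 h in Balb/c. Of 50 other mitotic genes 49 were lower at 4 h in C57BL6 (median -0.55) and 48 at 18 h (-0.39), and 48 were higher at 18 h in Balb/c (0.68), with none called in these 3 comparisons. Of 38 other replication factors 33 were lower at 4 h in C57BL6 (-0.54), 31 at 18 h (-0.21) and 35 were higher at 18 h in Balb/c (0.62). In that list Pold3, a subunit of DNA polymerase delta, was the only gene called in these comparisons (C57BL6 4 h, -0.92 ± 0.19, adjusted p = 0.0411). Of 16 genes of DNA damage response and repair 14 were lower at 4 h in C57BL6 (-0.65), 12 at 18 h (-0.22) and 16 higher at 18 h in Balb/c (0.82), none of them called. In the cohesin and condensin list, 11 of 12 were lower at 4 h in C57BL6 (-0.54), where Ncapg2 of condensin II (-1.52 ± 0.27, adjusted p = 0.0232) and Rad21 of cohesin (-0.72 ± 0.14, adjusted p = 0.0329) fell, and Rad21 was also lower at 18 h (-0.68, adjusted p = 0.0346). Of 16 other E2F, RB and DREAM factors 12 were lower at 4 h in C57BL6 (-0.50), 12 at 18 h (-0.27) and 12 higher at 18 h in Balb/c (0.18). Lin9, a subunit of the MuvB core, fell at 4 h in C57BL6 (-1.04 ± 0.19, adjusted p = 0.0271). Of 10 G1 cyclins, CDK4/6 and growth drivers 7 were lower at 4 h in C57BL6 (-0.32) and 6 at 18 h (-0.12). At 18 h in Balb/c 5 of these were higher and 5 lower (0.06). Over 160 genes in 7 lists, 5 were called at 4 h in C57BL6 (3.12%, against 3.24% of all genes) and 2 at 18 h (1.25%, against 4.29%). Genes called in C57BL6 alone were chosen for naming after their values were seen.

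Of 18 CDK inhibitors and p53 targets, 3 were called at 4 h over both strains, where 6.72% of all genes were, and 1 at 18 h, where 9.35% were. Cdkn1a, which encodes the inhibitor p21, rose at 4 h in C57BL6 (1.54 ± 0.28, adjusted p = 0.0274) and over both strains (1.24 ± 0.20, adjusted p = 0.0090). Its level was 3.63 and 2.90 in C57BL6 mock and 4.97 and 4.65 at 4 h, and 2.82 and 2.91 in Balb/c mock and 3.88 and 3.73 at 4 h, with no overlap in either strain. Cdkn2b, the inhibitor p15, rose over both strains at 4 h (2.17 ± 0.38, adjusted p = 0.0138), and Cdkn2d, the inhibitor p19, fell (-0.65 ± 0.14, adjusted p = 0.0290). These names too were chosen after their values were seen. At 18 h Cdkn1c, the inhibitor p57, fell over both strains (-2.14 ± 0.34, adjusted p = 0.0064), from 2.11 and 2.03 to -0.15 and -0.33 in C57BL6 and from 1.96 and 1.34 to 0.49 and -1.12 in Balb/c.

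The cyclin D genes, which pass growth factor signals to the RB proteins, were low in Balb/c replicate 1 at every time. Ccnd1 was at 1.44 and 4.31 in Balb/c mock, 0.92 and 3.91 at 4 h and 1.95 and 3.31 at 18 h, low on all 3 arrays of replicate 1, while the C57BL6 arrays lay between 4.24 and 4.93. Ccnd2 was at -1.06 and 2.48 in Balb/c mock, -1.29 and 1.98 at 4 h and -2.06 and -0.45 at 18 h, and at 1.30 to 3.59 in C57BL6. It differed between the strains over all conditions (-2.64 ± 0.74, adjusted p = 0.0453), and Ccnd1 did not pass (-1.81 ± 0.64, adjusted p = 0.089). Whether this has a part in the low S phase genes of Balb/c mock 1 and Balb/c 4 h 1 was not tested.

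In the other lists 13 of 160 genes differed between the strains over all conditions, 8.12% against 17.6% of all genes. Prim2, the large subunit of primase, was lower in Balb/c (-3.93 ± 0.20, adjusted p = 1.05e-05), at 1.60 to 2.25 on the C57BL6 arrays and -2.71 to -1.52 on the Balb/c arrays. Rbl2, which encodes the RB protein p130 of DREAM, was higher in Balb/c (1.36 ± 0.13, adjusted p = 0.0003), at -0.66 to -0.20 in C57BL6 and 0.74 to 1.29 in Balb/c. Smc4 of condensin (0.80 ± 0.11, adjusted p = 0.0021) and Aspm of the spindle poles (0.52 ± 0.12, adjusted p = 0.0211) were higher in Balb/c, and Cenpk (-0.99 ± 0.21, adjusted p = 0.0143), Ckap2l (-0.69 ± 0.18, adjusted p = 0.0341), Orc4 (-0.33 ± 0.09, adjusted p = 0.0315), E2f2 (-1.03 ± 0.28, adjusted p = 0.0401) and Lin37 (-0.49 ± 0.10, adjusted p = 0.0156) were lower. Cdkn1a (-0.76), Ccng1 (-0.75) and Mdm2 (-0.50), all targets of p53, were lower in Balb/c (adjusted p = 0.0154, 0.0011 and 0.0140). Their list of 18 CDK inhibitors and p53 targets was evenly split, with 9 values above 0, 9 below and a median of -0.03. No gene of the DNA damage list was called in that comparison.

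Marker lists of other cell types were followed over the arrays, and their sums are not compared with each other. Summed levels relative to the 75th percentile of the array ranged over the arrays from 0.225 to 0.322 for T cell markers, 0.939 to 3.15 for B cells, 0.976 to 10.0 for erythroid cells, 0.300 to 2.37 for neutrophils and their precursors, 0.059 to 0.117 for mast cells and basophils, 0.446 to 1.18 for progenitors and 23.2 to 65.0 for megakaryocytes. Mcpt8, Ms4a2 and Gp9, which define basophils, mast cells and megakaryocytes, were well above background on none of the arrays. The erythroid sum was highest on both Balb/c 18 h arrays, at 10.0 and 8.78, where the mitotic genes were highest, and lowest on the C57BL6 mock arrays, at 0.976 and 1.21. The neutrophil sum was 1.15 to 2.37 in C57BL6 and 0.300 to 0.628 in Balb/c. Their part in the results was not tested.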

How the data were processed

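RNA of 12 samples was hybridised to 1-colour Agilent arrays, 1 array a sample, with 1 µg of RNA labelled with Cy3 per the labels. The scanner files hold each spot's processed signal as a linear intensity, already background-subtracted, as produced by the scanner software (Agilent Feature Extraction, version 9.5.1.1 in the submitters' processing notes) and per the file headers. The authors also deposited a linear ratio per probe, with no stated denominator. Its column medians were 0.936 to 1.13. Up to a constant per array it follows the processed signal divided by the average of both C57BL6 mock arrays (standard deviation of the log2 difference 0.0018 to 0.0071 over 21169 probes), which gives its linear scale and direction, and it served as an alternative.

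Control spots and outlier spots were left out, spots of a probe averaged, log2 taken and the 75th percentile of the array subtracted. Of 41174 probes, 27383 were kept, being well above background on the 2 arrays of some group. Names came from RefSeq by transcript accession (17632), symbol (3983) or older symbol (1871), else from the file (3897). The brightest kept probe stood for each of 18436 genes. Of the 45 members 19 have several kept probes, whose signs differed for 1 (Cenpa, C57BL6 4 h) and 2 (E2f8 and Top2a, Balb/c 18 h).

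A mean for each of the 6 groups was estimated with limma 3.58.1 (R 4.3.3), using all 12 arrays, with 6 residual and 2.04 prior degrees of freedom. A gene was called where its p, adjusted by Benjamini-Hochberg over all genes tested, was below 0.05, and errors are standard errors. The 11 comparisons were IL-4 at each time against mock in each strain and over both, 18 h against 4 h, Balb/c against C57BL6 in mock and over all conditions, and, at each time, the Balb/c IL-4 change minus that of C57BL6. On data simulated for the C57BL6 18 h comparison over 18436 genes the fit recovered 19% of 100 genes changed by 1 and 61% of 100 changed by 2 (log2), with 8 false calls. Each p-value reflects only the spread among these pooled samples, and the number of arrays limits the precision.

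Replicate numbers pair the samples within a strain, since the series text gives independent experiments. Deviations of the same number from the group means correlated at 0.16 to 0.65 within strains and at -0.31 to 0.14 across them. All members may be named, with full statistics for the called members of a comparison, up to 8, or else for the 4 with the smallest p; of the other 7 lists, up to 4 genes each in 2 comparisons. The members and lists were chosen with earlier results of these data known. The alternatives were another background correction (normexp), quantile scaling, other filters, the mean of all kept probes, the deposited ratios, slide or replicate as a block, only the arrays compared and each array left out. Leaving out slide 2, and leaving out Balb/c mock 1 with Balb/c 4 h 1, were chosen after seeing the data.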

Additional observations from a re-analysis of the deposited data

Results flagged for a closer look

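For 20 of the 45 genes both C57BL6 arrays of 18 h lay below both C57BL6 mock arrays while both Balb/c arrays of 18 h lay above both Balb/c mock arrays, against 2.82% of all genes. Most of the 20 act in mitosis. None passed limma's interaction test, with adjusted p from 0.575 to 0.932, and no explanation was tested.

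The difference of the log2 changes, Balb/c minus C57BL6, was 1.09 for Rrm1 and 1.47 for Tyms, the S phase genes among them. For the mitotic cyclins and their kinase it was 1.12 for Ccna2, 1.20 for Ccnb1, 1.21 for Ccnb2 and 1.21 for Cdk1. Among the kinases, checkpoint and anaphase genes it was 1.18 for Plk1, 1.40 for Aurka, 1.41 for Aurkb, 1.07 for Birc5, 1.00 for Bub1b and 1.37 for Cdc20. Among motors and spindle genes it was 1.06 for Kif11, 1.31 for Kif20a, 0.87 for Kif2c, 1.31 for Prc1 and 1.15 for Nusap1. It was 1.07 for Cenpa, 1.40 for Cenpf and 1.20 for Mki67.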

How the results depend on the processing

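Counts below are of the 45 genes called by limma. Where the share of all genes under the same setting is not given above, a count shows only how the calls depend on that setting. It is then not a result about the 45 genes. In the main fit 5.24% of all genes were called between the strains in mock and 17.6% over all conditions. The replicate block called 10 in C57BL6 at 4 h, 5 in C57BL6 at 18 h, 8 in Balb/c at 18 h, 10 at 4 h and 1 at 18 h over both strains, 17 for 18 h against 4 h, 2 between the strains in mock and 5 over all conditions. It changed no other count. Across strains the numbers do not pair the samples, so its strain counts share only a number.

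Without Balb/c mock 1 and Balb/c 4 h 1 there were 4 in C57BL6 at 4 h, 1 in C57BL6 at 18 h, 2 at 4 h over both strains and 2 for 18 h against 4 h. The mean of all kept probes gave 1 at 4 h over both strains, 1 for 18 h against 4 h, 1 in mock and 4 over all conditions between the strains. Slide as a block gave 1 in Balb/c at 18 h, 1 for 18 h against 4 h and 0 over all conditions. The filter on all 12 arrays gave 1 in mock. Over all conditions, against 2, normexp gave 0, no background filter 1 and leaving out slide 2 gave 0.

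Leaving out each array in turn gave 0 to 1 in C57BL6 at 4 h (1 without Balb/c mock 1 or mock 2), 0 to 2 in Balb/c at 18 h (2 without Balb/c mock 2), 0 to 2 at 4 h over both strains (2 without Balb/c mock 1), 0 to 1 at 18 h over both strains (1 without C57BL6 mock 1), 0 to 2 for 18 h against 4 h (2 without Balb/c mock 1 or mock 2), 0 to 5 in mock and 0 to 7 over all conditions (both highest without Balb/c mock 2). A lone array is then assumed to vary like the other groups. Gmnn in Balb/c at 4 h ran from -1.09 without Balb/c mock 1 to 0.0298 without Balb/c mock 2. Kif23 in Balb/c at 4 h was -0.0230 without the 2 low arrays, and Cenpa between the strains was -0.00266 with slide as a block. The cause was not tested. The fit of only the arrays compared is the same fit for the comparison over all conditions. With 2 arrays a group, changes of 1 on the log2 scale were mostly missed in simulated data.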
